A study of Mus musculus with 6 samples.

Results

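The 3 Pim kinase genes (Pim1, Pim2 and Pim3) and Eras were followed in mouse embryoid bodies that carried microspheres with or without retinoic acid (RA). Their probe sets were found by gene symbol in the annotation of the array. This gave 7 of 45101 probe sets, with 2 for Pim1, 1 for Pim2, 3 for Pim3 and 1 for Eras. The 4 genes stand among 18193 that had a probe set with a single symbol. The group was chosen by the RA-minus-control differences of these same arrays, in which Pim2 and Eras had been seen among the largest. The differences of the 4 genes are therefore described and carry no test.

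Embryoid bodies are rounded aggregates in which embryonic stem cells differentiate in suspension. Those studied here were made by rotary culture from mouse embryonic stem cells of the D3 line, without leukaemia inhibitory factor (LIF), and were sampled at 10 days. All bodies contained gelatin-coated microspheres. In the 3 control samples the microspheres carried the dye CellTracker Red, and in the 3 RA samples they carried RA, the form of vitamin A that binds nuclear receptors. All samples came from 1 cell line, and the labels do not say whether the triplicates were separate cultures, so p-values cover only the scatter among these arrays, part or all of which may be technical. Each array measured whole bodies, in which fewer cells of a type and less RNA per cell cannot be told apart.

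Pim kinases are serine/threonine kinases that promote survival, growth and cell cycle progress. They have no regulatory domain and are active once made, so their amount is set largely by transcription and by turnover. Cytokine receptors raise their transcription through JAK kinases and STAT factors, and in mouse embryonic stem cells LIF acts by this route. Eras is a Ras-family GTPase known from embryonic stem cells, where it stays bound to GTP and drives growth through PI3K and Akt.

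Pim2 and Eras lie close together on the X chromosome, so the promoter windows of both are shown. They run from 250 bases before to 50 after the start site and come from RefSeq on GRCm38.p6, where all 4 genes matched. The Pim2 window is chrX:7878056-7878355 on the plus strand, and its capitals mark letters of the POU octamer, ATGCAAAT or its complement ATTTGCAT, and of its first 7 letters, ATGCAAA or TTTGCAT.
Pim2: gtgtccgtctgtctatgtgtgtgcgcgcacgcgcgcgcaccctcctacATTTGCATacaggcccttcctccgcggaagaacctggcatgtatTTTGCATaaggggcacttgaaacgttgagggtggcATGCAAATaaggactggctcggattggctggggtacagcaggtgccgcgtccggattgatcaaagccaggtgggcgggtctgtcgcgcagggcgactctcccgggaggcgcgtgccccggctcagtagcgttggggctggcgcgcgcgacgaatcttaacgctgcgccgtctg
The Eras window is chrX:7928558-7928857 on the minus strand, and its capitals mark GC boxes, GGGCGG or CCGCCC.
Eras: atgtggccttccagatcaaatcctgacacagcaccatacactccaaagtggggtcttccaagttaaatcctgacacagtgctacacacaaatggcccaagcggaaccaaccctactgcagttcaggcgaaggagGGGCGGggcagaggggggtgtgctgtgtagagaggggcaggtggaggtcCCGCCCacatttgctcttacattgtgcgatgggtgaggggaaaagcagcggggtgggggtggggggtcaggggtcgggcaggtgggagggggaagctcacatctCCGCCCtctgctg

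The start sites of Pim2 and Eras were 50301 bases apart, on opposite strands and pointing towards each other. The octamer, which POU factors such as Oct4 (Pou5f1) bind, was searched on both strands after the Pim2 window had been read. Pim2 held it 2 times, at bases -202 and -123 counted from the start site, and 0.107% of 32851 RefSeq windows of this length held 2 or more. Its first 7 letters, which overlap the octamer, occurred 3 times in the Pim2 window, and 0.0274% of all windows held 3 or more. The windows of Eras, Pim1 and Pim3 held 0 copies of either. None of the 4 genes had a STAT site (TTCNNNGAA, present in 8.30% of windows) or a direct repeat of the RA receptor motif AGGTCA with a spacer of 5 or 2 bases (each in 0.00913%). A single AGGTCA (in 16.3% of windows) was found 1 time, in Pim3. These matches are letters in a window and show no binding.

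The windows differed in CpG content. The upstream of 2 Pim1 windows held 42 CpG dinucleotides, Pim3 40 and Pim2 31, where the median window held 7. Eras held 8, and the other Pim1 window held 5. GC boxes (in 35.7% of windows) numbered 7 in the upstream Pim1 window, 0 in the other, 4 in Pim3, 3 in Eras and 1 in Pim2, and the CCAAT box (CCAAT, in 37.4% of windows) was present 2 times in Pim3 and 1 time in Pim2.

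Levels are given as log2(intensity + 16) after quantile normalization, so that 1 unit is a factor of about 2 in intensity for bright probe sets and of more than 2 for dim ones. Folds given as times are on this scale and understate the change of dim probe sets. Levels of different probe sets are not comparable. Probe sets with a mean level above 5.74, the 40th percentile, were kept, and 6 of the 7 passed. The trimmed mean of the deposited intensity ranged from 108 on control array 3 to 191 on RA array 2. RNA integrity was read from 3-prime over 5-prime signal. For Gapdh it was 34.0 for RA array 1 and 3.06 to 4.74 for all others. For actin it was 3.35 to 4.24 in controls and 4.35 to 7.42 with RA. Differences of the kept sets of the 4 genes, and of some other genes, are also given without RA array 1. The part of RNA quality in the differences was not tested.

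Pim2 and Eras were much higher in the RA arrays, Pim3 was modestly higher by 1 of its 3 probe sets, and Pim1 overlapped between the groups. Pim2 read 7.34, 7.66 and 7.08 on control arrays 1, 2 and 3. It read 11.29, 11.58 and 11.30 on RA arrays 1, 2 and 3. The groups were far apart, with 3.63 between the lowest RA array and the highest control. The means were 7.36 ± 0.29 in controls and 11.39 ± 0.16 with RA (SD, n = 3), a log2 difference of 4.03 ± 0.15 (SE), or 16.4 times. In deposited intensity, before the quantile normalization, the controls lay at 153, 202 and 85.1 and the RA arrays at 2652, 3680 and 2897. Pim2 ranked 2nd of 13608 genes by its difference, and between 1st and 6th under 16 alternative settings.

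Eras read 6.58, 6.82 and 5.96 for controls 1, 2 and 3. With RA it read 10.50, 10.03 and 10.16. The lowest control array was array 3, as for Pim2, whereas the highest RA array was array 1 for Eras and array 2 for Pim2. The means were 6.46 ± 0.45 and 10.23 ± 0.24 (SD, n = 3), and the difference of 3.77 ± 0.21 (SE) is 13.7 times. In deposited intensity the controls lay at 76.5, 107 and 33.3 and the RA arrays at 1511, 1259 and 1315. Eras ranked 5th of 13608 genes, and between 3rd and 9th under the alternatives. All 3 control arrays lay above the filter level, so Eras did not pass it through the RA group alone. Its single probe set carries the suffix _x_at, by which Affymetrix marks sets with probes that may also match other transcripts, so its signal may include other RNA.

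Pim3 was read by 3 probe sets that gave different pictures. The brightest, 1437100_x_at, read 7.96, 7.68 and 8.03 for controls 1, 2 and 3, against 8.41, 8.38 and 8.75 with RA. Here the groups did not overlap, and the difference was 0.63 ± 0.15 (SE), or 1.54 times. The set 1451069_at read 7.17, 7.25 and 7.73 in controls and 7.04, 7.64 and 7.93 with RA, with overlap and a difference of 0.15 ± 0.25 (SE). The set 1438956_x_at also overlapped, at 0.29 ± 0.29 (SE). Both 1437100_x_at and 1438956_x_at carry the suffix described for Eras, so their signal may include other RNA. The set 1451069_at does not carry it. The mean of the 3 sets gave 0.36, so the size for Pim3 depends on the probe set. Without RA array 1 the values became 0.67 for 1437100_x_at, 0.40 for 1451069_at and 0.19 for 1438956_x_at.

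Pim1, the founding member of the family, was read by 2 probe sets. The brighter, 1435458_at, read 7.58, 7.31 and 7.38 for controls 1, 2 and 3, against 7.19, 7.58 and 7.75 with RA. The groups overlapped, RA array 1 was the lowest of the 6, and the difference was 0.08 ± 0.18 (SE). Without RA array 1 it was 0.24, and over the 16 alternatives it ran from -0.04 to 0.28. The other set, 1423006_at, had a mean below the filter level and read 4.96, 6.11 and 5.92 in controls and 5.04, 5.39 and 6.03 with RA. Its difference of -0.18 ± 0.40 (SE) has a spread larger than its size.

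Of the 4 genes 3 had RA arrays that all lay above the controls, as did 21.8% of all genes, and of the 7 probe sets 3 did, as did 15% of all probe sets. The comparison that chose the genes is the same, so nothing is read from these counts.

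**Figure D1:**
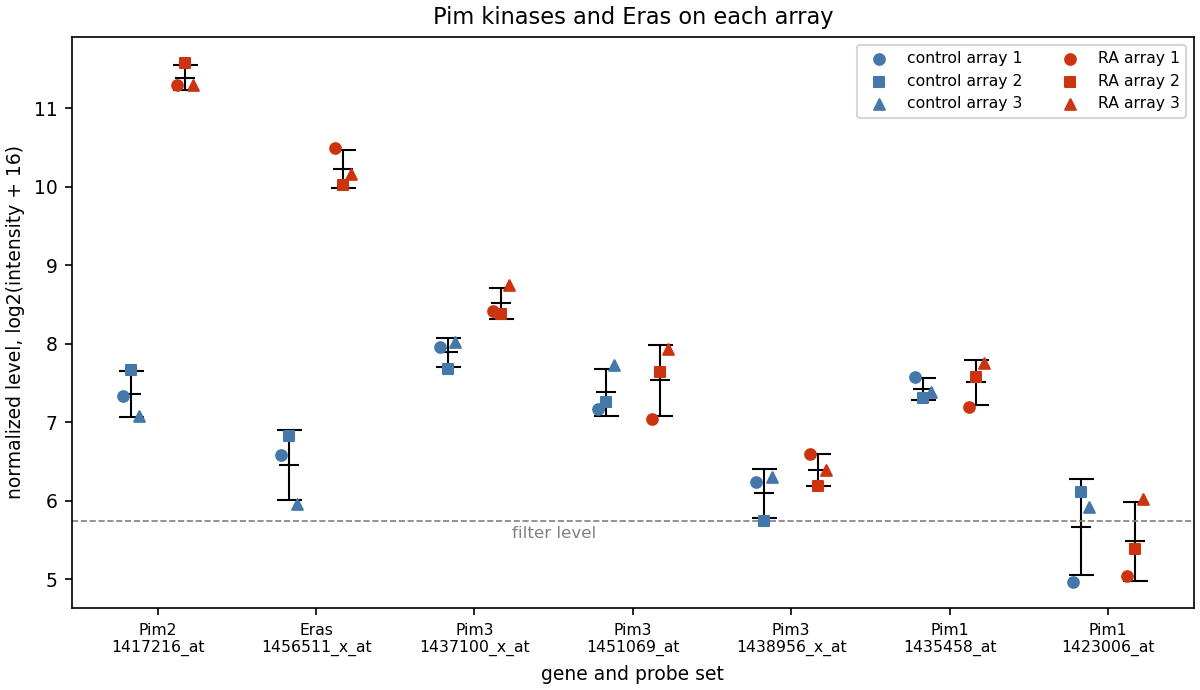
Normalized level, log2(intensity + 16), of each probe set of Pim2, Eras, Pim3 and Pim1 on each array (points, shaped by array number), with mean and SD bars for 3 control and 3 RA arrays; the dashed line is the filter level of 5.74. Pim2 and Eras stand apart between groups by 3.63 and 3.20 from highest control to lowest RA array, while both Pim1 sets overlap.

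The differences of Pim2 and Eras were large under every setting tried. Pim2 ran from 3.68 to 4.31 and Eras from 3.19 to 4.06, with the lowest value of each at a pseudocount of 64 and the highest without scaling. Without RA array 1 they were 4.07 and 3.64. Without scaling Pim3 was 0.86, but the median gene then stood at 0.26, against 0.01 with scaling. Relative to the median gene, Pim3 was about the same in both.

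**Figure D2:**
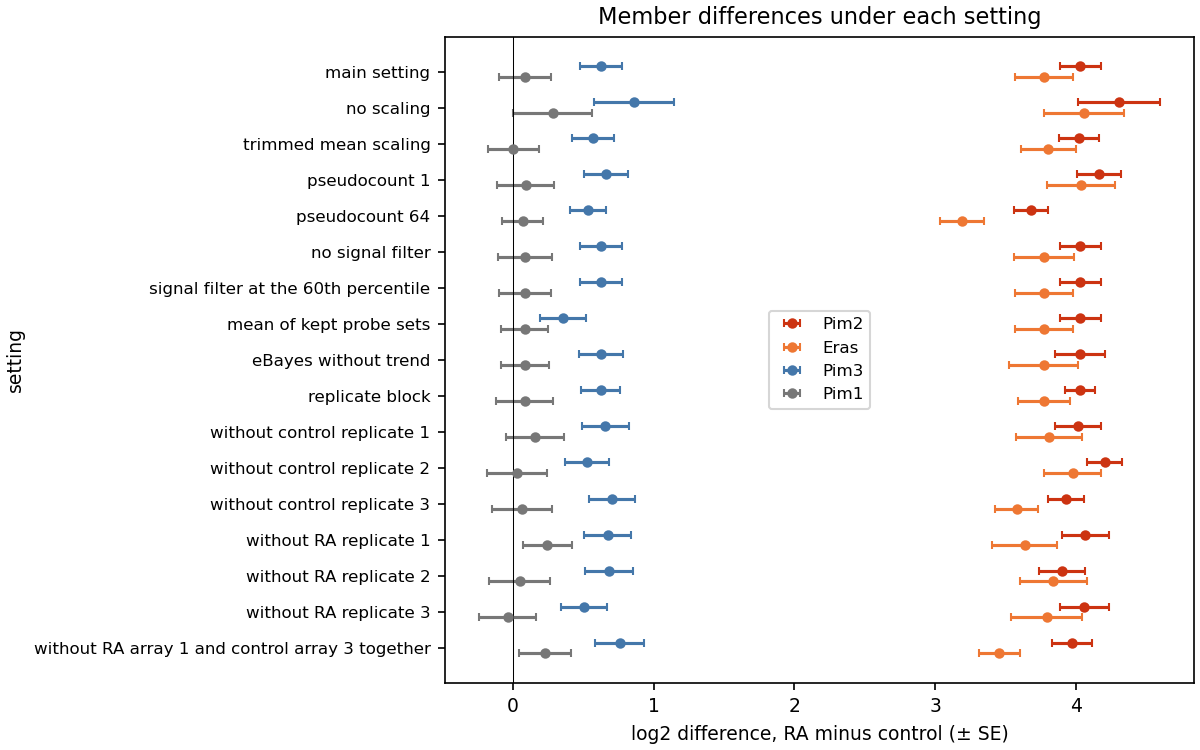
Log2 difference, RA minus control, with SE bars, of the brightest probe set of each gene (or the mean of its kept sets, where named) under the main setting and 16 alternatives. Pim2 lies between 3.68 and 4.31, Eras between 3.19 and 4.06, Pim3 between 0.36 and 0.86, and Pim1 between -0.04 and 0.28.

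The genes whose levels followed each member most closely were taken by Pearson correlation over the 6 arrays. These values are mainly set by the step between the groups and carry no test. For Pim2 they were Ap1s3 (r = 0.999), Tac1 (0.999), Gnl3 (0.999) and Dis3 (0.999). Their own differences were 2.17, 0.34, 0.97 and 1.11, so a close correlation went with differences far smaller than that of Pim2. For Eras they were Zfp982 (r = 0.999), Cer1 (0.999), Srsf6 (0.998) and Zscan10 (0.998), with differences of 1.69, 3.09, 0.86 and 2.07. Cer1 encodes a secreted antagonist of Nodal and BMP. Pim2 and Eras correlated with each other at 0.992.

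For Pim3 the closest were Oard1 (r = 0.989), Septin3 (0.989), Rpa2 (0.988) and Tub (0.987), with differences between 0.15 and 0.59. For Pim1 they were Tmem106c (0.980), Serpinb1a (0.980), Tmtc1 (0.978) and Exosc5 (0.978), with differences between 0.02 and 0.18.

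The surroundings of Pim2 and Eras on the X chromosome did not share the size of their differences. Slc35a2, Pqbp1, Timm17b and Pcsk1n are the 4 named protein-coding genes between them. Pqbp1, which encodes a splicing-related protein, rose 1.32 times (limma adjusted p = 0.00619, Benjamini-Hochberg), and Pcsk1n, a secreted inhibitor of a prohormone convertase, rose 1.58 times (limma adjusted p = 0.0406). Timm17b, a subunit of mitochondrial protein import, had a log2 difference of -0.01 ± 0.09 (SE), and Slc35a2, a UDP-galactose transporter, one of -0.35 ± 0.14. Neither passed. Hdac6, a cytoplasmic deacetylase and the next gene beyond Eras, rose 2.07 times (limma adjusted p = 6.81e-05). Gata1, the erythroid factor that follows it, had a difference of -0.65 ± 0.25 and did not pass. Otud5, next to Pim2 on the other side, was at 0.00 ± 0.13.

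Of the 10 named genes on each side of Pim2 and of Eras, 24 different genes, 19 were measured, of which 4 rose, 3 fell and 12 did not pass. The transcription factor gene Tfe3 was the other rise (0.43 ± 0.12), and the falls were Gpkow (-0.93 ± 0.11), Wdr13 (-0.59 ± 0.16) and Praf2 (-0.44 ± 0.15). The median of the 19 was -0.01, against 0.01 over all genes. By the same limma test 14.3% of all 13608 genes rose and 15.6% fell, 30% in all. Of 455 X-linked genes other than Pim2 and Eras, 100 rose (21.98%) and 88 fell (19.34%), with a median of 0.09. Both X-linked shares lay above those over all genes, and this excess was not tested. Without scaling 2 of the 19 passed, both as rises, and over all genes 72.9% of the calls were then rises, against 47.8%.

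**Figure D3:**
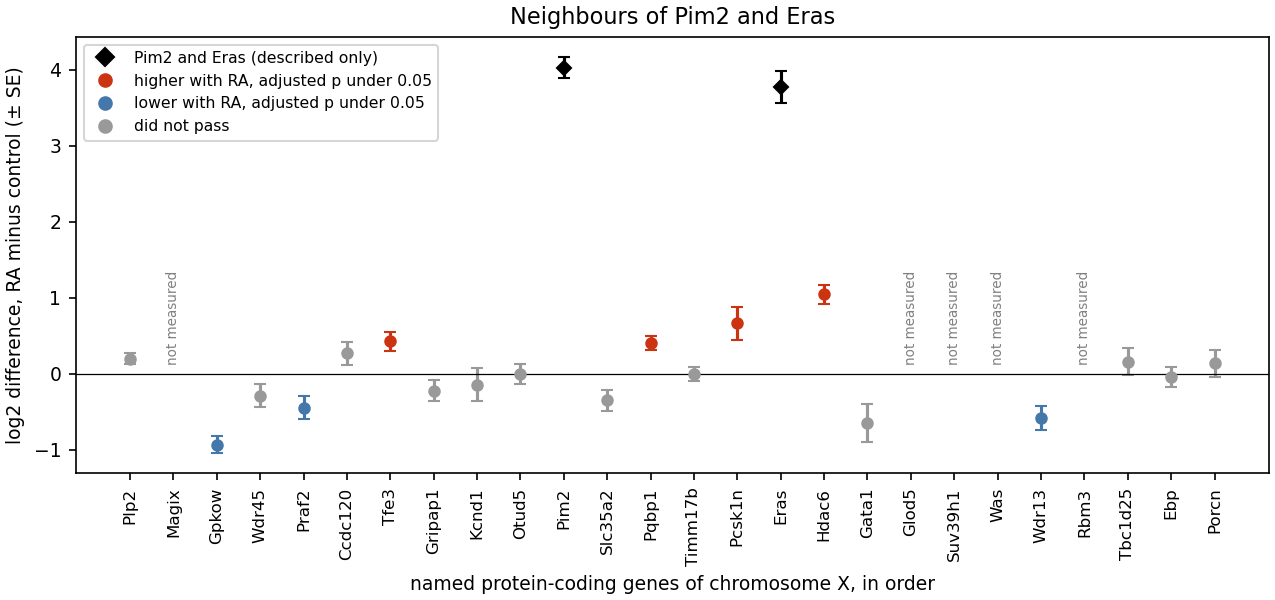
Log2 difference, RA minus control, with SE bars, for the named protein-coding genes around Pim2 and Eras in their order on chromosome X. Pim2 and Eras lie at 4.03 and 3.77, and the measured neighbours lie between -0.93 and 1.05.

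Around Pim1 on chromosome 17, 16 of 20 neighbours were measured, of which Srsf3, a splicing factor, rose (0.61 ± 0.06) and 4 fell. The falls were Cdkn1a (-1.65 ± 0.14), Mtch1 (-0.66 ± 0.16), Zfand3 (-0.40 ± 0.09) and Stk38 (-0.29 ± 0.10). Their limma adjusted p ran from 5.64e-06 to 0.0486. Around Pim3 on chromosome 15, 4 of 17 measured neighbours rose and 0 fell by limma with or without a trend (1 had an unadjusted p under 0.05 on the lower side). The rises were Celsr1, an atypical cadherin (2.23 ± 0.27, with a control mean of 5.08, below the filter level), Tafa5 (0.93 ± 0.16) and the p38 kinase genes Mapk12 (0.70 ± 0.18) and Mapk11 (0.62 ± 0.20). Without RA array 3 the rises around Pim3 numbered 2, and without scaling the calls around Pim1 numbered 2. For comparison, 14.3% of all genes rose and 15.6% fell. Of 531 genes tested on chromosome 15, 69 rose and 61 fell, and of 621 on chromosome 17, 84 rose and 81 fell. The counts around Pim1 and Pim3 are few and were not tested against these backgrounds.

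Upstream of Pim transcription, 5 of 20 measured genes of JAK-STAT signalling fell with RA and 1 rose, Stat3 among those that fell. Stat3, the factor that LIF activates in stem cells and that induces Pim genes, read 9.12, 8.94 and 8.87 in controls and 7.91, 7.77 and 7.83 with RA. It was 2.20 times lower (-1.14 ± 0.12, SE, limma adjusted p = 3.39e-05), and its 3 probe sets all lay below 0, from -1.14 to -0.43. Stat5b, the other STAT known for Pim induction that passed, fell by 0.55 on the log2 scale. Its sets disagreed, however, from -0.55 to 0.22. Il6st (gp130), the receptor chain shared by LIF and interleukin-6, fell by 0.79, with its 3 probe sets from -0.79 to -0.06. Jak3 fell by 1.31 to an RA mean of 5.11, below the filter level.

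The feedback inhibitors of the pathway split. Socs2 read 9.08, 8.85 and 8.53 in controls and 10.14, 9.96 and 10.13 with RA, 2.39 times higher (limma adjusted p = 3.22e-05). Its 5 probe sets ranged from -0.40 to 1.26, so not all show the rise. Socs3, a STAT3 target that blocks gp130 signalling, was lower (-0.59 ± 0.19, limma adjusted p = 0.0387), although RA array 1 overlapped the controls at 9.33. Lif, Lifr and Jak1, the ligand, its receptor and a kinase, were at 0.29, 0.44 and 0.15 and did not pass, and Pias2 was at 0.28 (limma adjusted p = 0.0910).

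The other 14 genes of this list did not pass, and its median was -0.10. The share called was about that over all genes, 30%. Without scaling, and without control array 2, 3 genes were called, 1 rise and 2 falls. Il6st did not pass without scaling (-0.57) or without RA array 1 and control array 3 together (-0.53). Jak3 did not pass without RA array 1 (-1.11). It was below the filter, and so had no value, at a pseudocount of 1, with the filter at the 60th percentile and without control array 1 or 2.

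Among 22 substrates and partners of Pim kinases, 7 genes rose, Mycn, Mycl and Cxcr4 among them, and 4 fell, Cdkn1a among them. Cdkn1a (p21), which Pim kinases phosphorylate, read 11.21, 11.14 and 11.33 in controls and 9.25, 9.58 and 9.91 with RA. It was 3.13 times lower (-1.65 ± 0.14, limma adjusted p = 5.64e-06), also by its other probe set (-1.83). Cdkn1a is also one of the neighbours of Pim1 named above. Mycn read 9.63, 9.59 and 9.38 in controls and 10.62, 10.68 and 10.63 with RA, 2.16 times higher (limma adjusted p = 3.67e-06). Mycl, read by 1 kept probe set, was at 1.54 ± 0.23 (limma adjusted p = 0.000339). Myc itself, which cooperates with Pim kinases in lymphoma, was at -0.08 ± 0.19 and did not pass.

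Cxcr4, the chemokine receptor whose surface level Pim1 supports, was 3.60 times higher (limma adjusted p = 3.13e-05), from 6.82 ± 0.40 to 8.67 ± 0.07 (SD, n = 3). Eif4ebp1 (4E-BP1), the translation repressor at which Pim2 and mTOR meet, rose 1.49 times (0.58 ± 0.07, limma adjusted p = 7.70e-05). Skp2, the ubiquitin ligase subunit that degrades p27, was at -0.34 ± 0.09 (limma adjusted p = 0.0140). However, without scaling its difference turned to 0.03, where the median gene stood at 0.26. Skp2 did not pass without control array 1, without RA array 2 or without a trend in eBayes. Bad, the death agonist that Pim kinases inactivate, was at -0.22 ± 0.32, and Cdkn1b (p27) at -0.19 ± 0.11. Neither passed.

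All 22 listed genes were measured, 11 of them did not pass, and the median was 0.03. The other falls were Mdm2 (-0.47 ± 0.14) and Numa1 (-0.40 ± 0.12). Both had a probe set with the opposite sign. The share called was 50%, against 30% of all genes, in a list chosen with earlier results of these data known. It was 7 of 22 without scaling, 6 of them rises.

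Eras acts on PI3K, and of 26 measured genes of PI3K, Akt and mTOR signalling 3 rose, 4 fell and 19 did not pass. The catalytic subunit genes Pik3ca, Pik3cb and Pik3cd were at -0.10, 0.11 and 0.13, and Mtor was at -0.02. None of these passed. Deptor, an inhibitor of mTOR, was 2.24 times higher (limma adjusted p = 0.000133), from 7.04 ± 0.10 to 8.20 ± 0.11 (SD, n = 3). Rictor, a part of mTOR complex 2, was at 0.49 ± 0.15, and Eif4e, the cap-binding protein, was 1.52 times higher (limma adjusted p = 0.000340). The 4 probe sets of Eif4e ran from -0.06 to 0.60, and their mean of 0.23 did not pass.

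The insulin receptor substrates Irs1 and Irs2 were 1.90 and 1.69 times lower (limma adjusted p = 0.000372 and 0.0231), and neither passed without scaling (-0.67 and -0.53). Irs2 also did not pass without control array 3 or without RA array 1 or 2. Tsc1, which restrains mTOR, was at -0.43 ± 0.14, with a second probe set at 0.06. Akt1 read 8.74, 9.01 and 8.47 in controls and 4.94, 7.82 and 7.22 on RA arrays 1, 2 and 3. Its difference of -2.08 ± 0.55 (limma adjusted p = 0.0136) was -1.22 without RA array 1, the array with the high Gapdh ratio. Its 3 probe sets ranged from -2.08 to 0.80, and their mean of -0.50 did not pass. The call was also lost without control array 2 (-1.95) and without a trend in eBayes.

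The median of this list was 0.03, and 26.9% of it was called, near the 30% of all genes. Without scaling 3 rose and 1 fell, and without control array 2 the counts were 2 and 2.

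Among Ras-family genes and their regulators, the largest difference of a measured Ras relative, by its brightest probe set, was 0.35, against 3.77 for Eras. Other kept sets reached 0.88 for Rras2, 0.57 for Nras and -0.70 for Rit1. Nras was at 0.20 ± 0.11 and Rras at -0.05 ± 0.12, and neither passed. Rras2 (TC21), a relative that also signals to PI3K, rose 1.28 times (0.35 ± 0.09, limma adjusted p = 0.0137). Shoc2, a scaffold for Ras and Raf, read 8.88, 8.94 and 8.79 in controls and 9.52, 9.62 and 9.65 with RA, 1.65 times higher (limma adjusted p = 0.000164). Rasgrp2, an exchange factor, rose 2.07 times and Braf 1.43 times, by differences of 1.05 ± 0.21 and 0.52 ± 0.13.

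Spred1, an inhibitor of the Raf pathway, was at 0.64 ± 0.10 (limma adjusted p = 0.000372), but its 6 probe sets ran from -0.03 to 0.69 and their mean of 0.30 did not pass. Rasa3, a GTPase-activating protein that switches Ras off, was 2.29 times lower (-1.20 ± 0.17, limma adjusted p = 0.000258). Its arrays read 8.52, 8.62 and 8.74 in controls and 7.80, 7.29 and 7.21 with RA. Araf was at -0.44 ± 0.16 (limma adjusted p = 0.0607) and did not pass, except without RA array 1 (-0.52) and with trimmed mean scaling (-0.52). Of 25 measured genes 5 rose, 1 fell and 19 did not pass, with a median of 0.08. This is 24% called, against 30% of all genes.

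The BCL2 family decides on survival at the mitochondrion, where Pim kinases and Akt act through Bad. Bcl2, the survival gene that names the family, read 7.44, 7.01 and 7.02 in controls and 5.15, 5.87 and 5.59 with RA. It was 3.09 times lower (-1.63 ± 0.27, limma adjusted p = 0.000930), by its only kept probe set and with an RA mean of 5.53, below the filter level. The survival genes Bcl2l1 and Mcl1 were at 0.19 and 0.08 and did not pass. Bid, a death agonist, was at 0.45 ± 0.14 (limma adjusted p = 0.0352), but did not pass without any 1 of 5 arrays, RA array 2 being the exception, nor without scaling. Bmf, Bbc3 and Bcl2l2 were at 0.34, 0.35 and -0.54 and did not pass. Of 14 measured genes 1 rose, 1 fell and 12 did not pass, with a median of 0.15. This is 14.3% called, against 30% of all genes, and the only call was a fall when control array 1, control array 3 or RA array 3 was left out.

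Markers of several cell types moved between the same groups, and their part in the differences of Pim2 and Eras was not tested. The counts of these markers stand against 14.3% of all genes that rose and 15.6% that fell. The marker lists were chosen with earlier results of these data known, so their counts are described and carry no test. Of 14 epiblast and general pluripotency genes all 14 rose, with a median of 2.34, and their summed normalized intensity was 4327 to 4808 in controls and 23261 to 23767 with RA. Pou5f1 read 7.99, 8.56 and 8.27 in controls and 10.56, 10.86 and 10.69 with RA. Genes of the naive state, which LIF and Stat3 sustain, split, with 3 of 15 higher and 5 lower and a median of -0.46. Their summed intensity was 7815 to 8776 in controls and 5044 to 5437 with RA. This sum mostly follows 1 bright gene, Dppa5a, whose mean was 12.36 in controls and 11.17 with RA. Dppa5a fell by 1.19 and Klf2 by 1.17, while Nanog and Klf4 rose by 0.69 and 0.65.

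Of 16 blood and vessel markers 0 rose (limma, 0 at an unadjusted p under 0.05) and 14 fell, from a summed intensity of 18289 to 20946 in controls to 817 to 1007 with RA. Pim1 and Pim2 are known from blood cells, and 5 of these markers had an RA mean below the filter level. Of 8 heart muscle markers 6 fell, and of 8 visceral endoderm markers 4 rose and 4 fell. Of 5 measured neural progenitor markers 3 rose, with a median of 2.72, against 2.34 for the epiblast and general pluripotency list. Pax6 (0.27, with another probe set at 1.53) and Nes (0.02, with another at 0.47) did not pass.

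**Figure D4:**
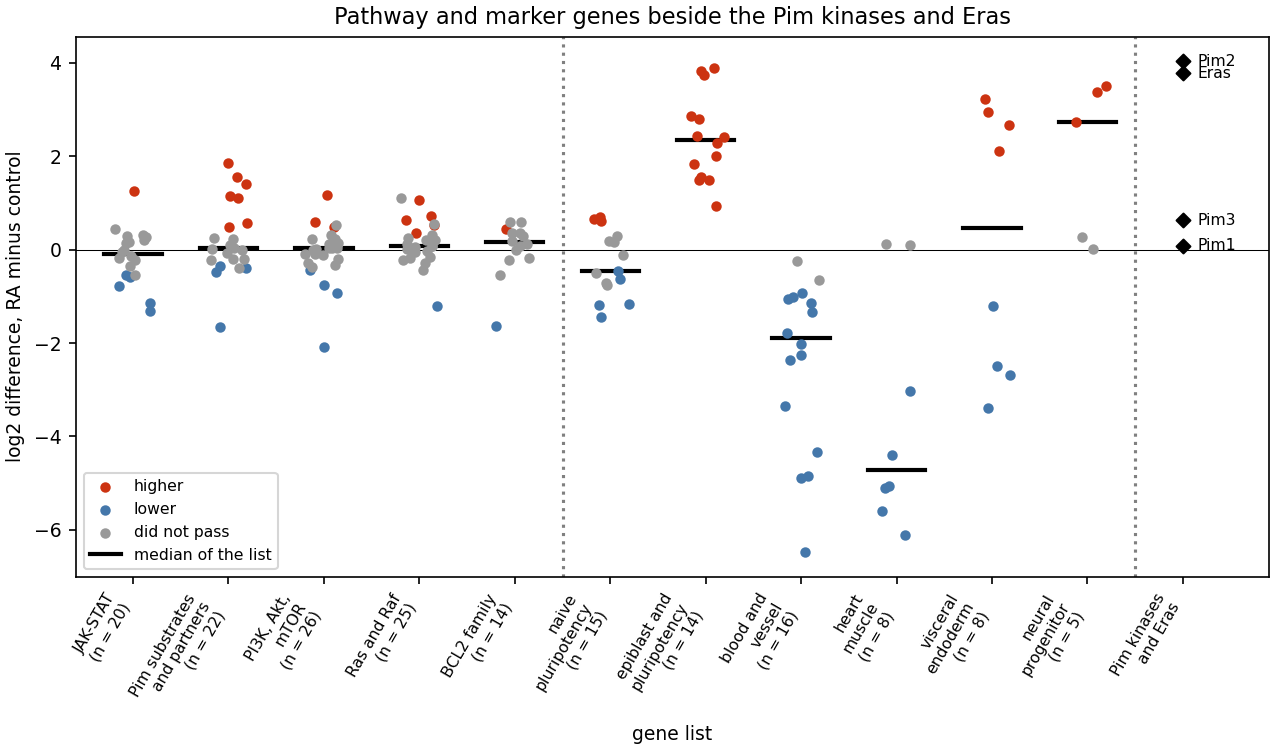
Log2 difference, RA minus control, of each measured gene in 5 pathway lists (left of the first dotted line) and 6 marker lists, with list medians as bars, beside the brightest probe set of the Pim kinases and Eras (right). The pathway medians lie between -0.10 and 0.15, and Pim2 and Eras lie at 4.03 and 3.77. The epiblast and pluripotency genes reach from 0.94 to 3.89. Neural progenitor genes reach up to 3.51 (Fabp7) and visceral endoderm genes up to 3.22 (Cubn).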

How the data were processed

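The deposited file holds linear probe set intensities of an Affymetrix mouse array, made per the labels with GCOS at default settings, whose version is not given in the sources used here, nor is any signal scaling. The 64 control probe sets were left out. Arrays were not on a common level, so log2(intensity + 16) was quantile-normalized with limma 3.58.1 in R 4.3.3. Probe sets above the 40th percentile of mean level (27022) were kept, and each gene was read by its brightest kept set with a single symbol. Symbols came from the array's annotation, in which 34945 probe sets have 1 symbol, 932 several and 9160 none. Groups were compared with lmFit and eBayes with a trend, two-sided, without covariates, with Benjamini-Hochberg adjustment over 13608 genes and a threshold of 0.05. Errors of differences are SE of that fit, or, for the Pim kinases and Eras, of the same fit over all 45037 probe sets. No detection calls were used, and the number of arrays limits the precision.

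The members and the gene lists were chosen with earlier results of these data known. Genes named were all members, up to 5 genes of each pathway list by p (at most 3 of one direction where both were called), the 4 most correlated named genes for each member, called neighbours, the measured Ras relatives fixed by name, Stat3 and Socs3. Other list genes were named after their values were seen. Neighbours were the 10 nearest protein-coding genes on each side in RefSeq order, leaving out model-named and clone-named genes. Array annotation names no genome build, so coordinates are those of the RefSeq promoter table alone. The procedure was tested on simulated data with independent noise and no RNA quality effect, and no result given here rests on that test.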

Additional observations from a re-analysis of the deposited data

How the results depend on the processing

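Without scaling, calls numbered 2401 over all genes, against 4076. They numbered 3 for JAK-STAT genes, 7 for Pim substrates, 4 for PI3K genes, 1 for the BCL2 family, 2 around Pim2 and Eras and 2 around Pim1, the Pim3 difference was 0.86, and Skp2 turned to 0.031. BCL2 calls numbered 1 with trimmed mean scaling, with a filter at the 60th percentile and without a trend in eBayes. Pim2 was 3.68 and Eras 3.19 with a pseudocount of 64. With the mean of kept probe sets Pim3 was 0.36, PI3K calls numbered 4 and those around Pim1 3. Without a trend, calls numbered 7 for Pim substrates and 3 around Pim1. Without RA array 1 and control array 3 together, they numbered 4 for PI3K genes, 1 for the BCL2 family and 3 around Pim1. With 1 array left out at a time, calls ran from 3265 to 3627 over all genes, 3 to 6 for JAK-STAT, 8 to 10 for Pim substrates, 4 to 8 for PI3K, 5 to 7 for Ras and 1 to 3 for the BCL2 family. They were 5 each time around Pim2 and Eras, 4 to 5 around Pim1 and 2 to 4 around Pim3. Differences ran from 3.90 to 4.203 for Pim2, 3.58 to 3.98 for Eras, 0.51 to 0.71 for Pim3 and -0.04 to 0.24 for Pim1. The cause of these changes was not tested. The labels do not say whether replicate numbers pair the arrays. Deviations of same-numbered arrays from their group means correlated at -0.09, -0.01 and -0.03. These values show no pairing, but with 3 arrays per group they cannot exclude it. With a replicate block 3724 genes were called, and 6, 10, 7, 7 and 2 in the 5 pathway lists. For the 25 list genes named by rule, 363 of 395 comparisons with an alternative left the call as it was, 27 lost it and 4 gained it. In the remaining 1, Skp2 without scaling, the difference changed sign to 0.031 ± 0.286 (SE), with the median gene at 0.26. Dim signal limits Jak3, Bcl2, Celsr1 and the dimmer Pim1 set.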
